A study of Mus musculus with 4 samples.

Results

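The 10 genes described here encode the 3 TGF-beta ligands (Tgfb1, Tgfb2, Tgfb3), their receptors (Tgfbr1, Tgfbr2, Tgfbr3), the signal transducer Smad3, the inhibitory SMADs Smad6 and Smad7, and the secreted matrix protein Tgfbi. They were chosen by name, with earlier results of these data known. Every probe set annotated to exactly 1 of these symbols was taken. This gave 25 of the 45037 non-control probe sets on the array and 10 of 18193 genes. Expression had been measured in 4 mouse liver tumor samples, 1 per Affymetrix whole-genome mouse array. All 4 tumors were driven by HrasV12, carried a tet-off shp53 (a short hairpin RNA against p53 that is made until doxycycline is given), and came from liver progenitor cells (LPCs) transplanted into the livers of recipient mice. In 2 samples (p53 off) doxycycline had been given for 0 days, and in the other 2 (p53 on) for 8 days in chow, after which p53 is restored. The labels give no strain or age, leave unsaid whether replicates came from separate animals or clones, and name no sample with doxycycline but without the hairpin. The effect of p53 restoration cannot be told apart from that of the drug or of 8 further days, and p-values reflect the scatter of these samples alone, which may be technical.

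TGF-beta is secreted in a latent form and, once released, binds a complex of TGFBR2 and TGFBR1, which phosphorylates SMAD3 and its close relative so that they enter the nucleus with a common partner SMAD and change transcription. TGFBR3, or betaglycan, presents ligand to TGFBR2 and can also be shed as a trap. SMAD7 and SMAD6 are feedback inhibitors that are themselves induced by the pathway. In the liver, TGF-beta restrains proliferation of epithelial cells and drives stellate cells to make matrix. In bulk tumor RNA, fewer cells of a type and less RNA per cell cannot be told apart.

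Promoters of 4 of the genes are shown first, because the comparison switches p53 and the genes are those of the SMAD pathway. Marked are matches to sequences known to be recognised by SMADs, to the TATA box, and to the p53 half-site, which is only part of a p53 site. RefSeq promoter windows (GRCm38.p6, 250 bases before to 50 bases after the start) were matched for 7 of the 10 genes; Tgfb3, Tgfbr3 and Smad7 were not matched. Both strands were searched for the SMAD palindrome GTCTAGAC, the CAGA box core CAGACA, the TATA box TATAAA and the p53 half-site consensus. Capitals mark the matches, and no match overlapped a match to another motif. Only the bases before the start are printed, except for Smad6, where the window runs 10 bases past it because the match spans the start.
Tgfbr2, chr9:116175364-116175613, minus strand: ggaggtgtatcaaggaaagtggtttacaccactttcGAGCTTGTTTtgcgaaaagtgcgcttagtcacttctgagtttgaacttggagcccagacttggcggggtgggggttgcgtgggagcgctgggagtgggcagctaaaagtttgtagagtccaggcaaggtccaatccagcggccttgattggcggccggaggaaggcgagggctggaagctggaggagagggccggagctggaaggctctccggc
Tgfbi, chr13:56609336-56609585, plus strand: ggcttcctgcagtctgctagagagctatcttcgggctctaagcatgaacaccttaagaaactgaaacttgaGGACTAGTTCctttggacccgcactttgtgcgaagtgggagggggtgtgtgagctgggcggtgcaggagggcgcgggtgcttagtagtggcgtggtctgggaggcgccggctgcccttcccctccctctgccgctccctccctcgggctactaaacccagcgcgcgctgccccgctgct
Tgfb2, chr1:186705990-186706239, minus strand: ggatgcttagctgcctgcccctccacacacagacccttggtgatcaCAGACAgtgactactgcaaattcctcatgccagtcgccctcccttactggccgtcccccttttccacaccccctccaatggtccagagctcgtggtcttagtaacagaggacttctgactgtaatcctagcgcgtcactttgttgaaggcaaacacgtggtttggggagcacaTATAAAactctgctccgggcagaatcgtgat
Smad6, chr9:64022050-64022309, minus strand: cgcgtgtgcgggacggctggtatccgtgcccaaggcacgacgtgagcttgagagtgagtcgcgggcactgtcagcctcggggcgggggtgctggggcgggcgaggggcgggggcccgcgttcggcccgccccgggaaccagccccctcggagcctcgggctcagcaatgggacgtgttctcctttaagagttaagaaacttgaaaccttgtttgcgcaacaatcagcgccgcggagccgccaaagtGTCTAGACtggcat

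The p53 half-site consensus was matched in Tgfbr2, with its first base at position -214 from the start, and in Tgfbi, at -179. Neither window held another match to it. The same consensus was matched in 8.36% of all 32851 promoter windows. The TATA box in Tgfb2 lay at -31 to -26, and 13.6% of all windows held those letters. CAGACA was found in Tgfb2 at -204 and in the second listed start of Tgfbr1, which is not printed, at -203, against 21.0% of all windows. GTCTAGAC was found in Smad6 alone among the 7 genes, over positions -4 to 4, and in 0.21% of all windows. A match is a description of the letters in the window and not a measured binding site.

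After 8 days of doxycycline the brightest probe set of each receptor was higher, while 5 of the 8 receptor probe sets did not pass the test. Smad7 was lower, and of the ligands Tgfb2 and Tgfb3 were higher while Tgfb1 did not pass the test. Of the 10 genes, each read from its brightest probe set, 6 rose (Tgfb2, Tgfb3, Tgfbr1, Tgfbr2, Tgfbr3 and Tgfbi) and 1 fell (Smad7), while Tgfb1, Smad3 and Smad6 did not pass the test. The test was limma's moderated test across all non-control probe sets with Benjamini-Hochberg adjustment, and an adjusted p under 0.05 counted as called. In the same comparison 27.7% of all 18193 genes were called, 13.5% higher and 14.2% lower. The 2 groups did not overlap in 23 of the 25 probe sets, as in 63.8% of all probe sets. By probe set, 12 of the 25 rose and 2 fell, against 22.8% of all probe sets called. Of all called probe sets 49.4% were higher in p53 on. That share was 37.7% after median centring of the arrays and 69.0% after scaling to spike-in hybridization controls (BioB, BioC, BioD and Cre). The median change of the 10 genes was 0.39 on the log2 scale, beside 0.02 over all genes. Because the genes were chosen with earlier results of these data known, these contrasts describe the genes and do not test them as a set. The counts depended on the p53 off arrays: without p53 off replicate 1 or 2 the called genes went from 7 to 4 in both cases, namely Tgfb2, Tgfbr2, Tgfbr3 and Smad7. The called probe sets then numbered 6 and 5.

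**Figure D1:**
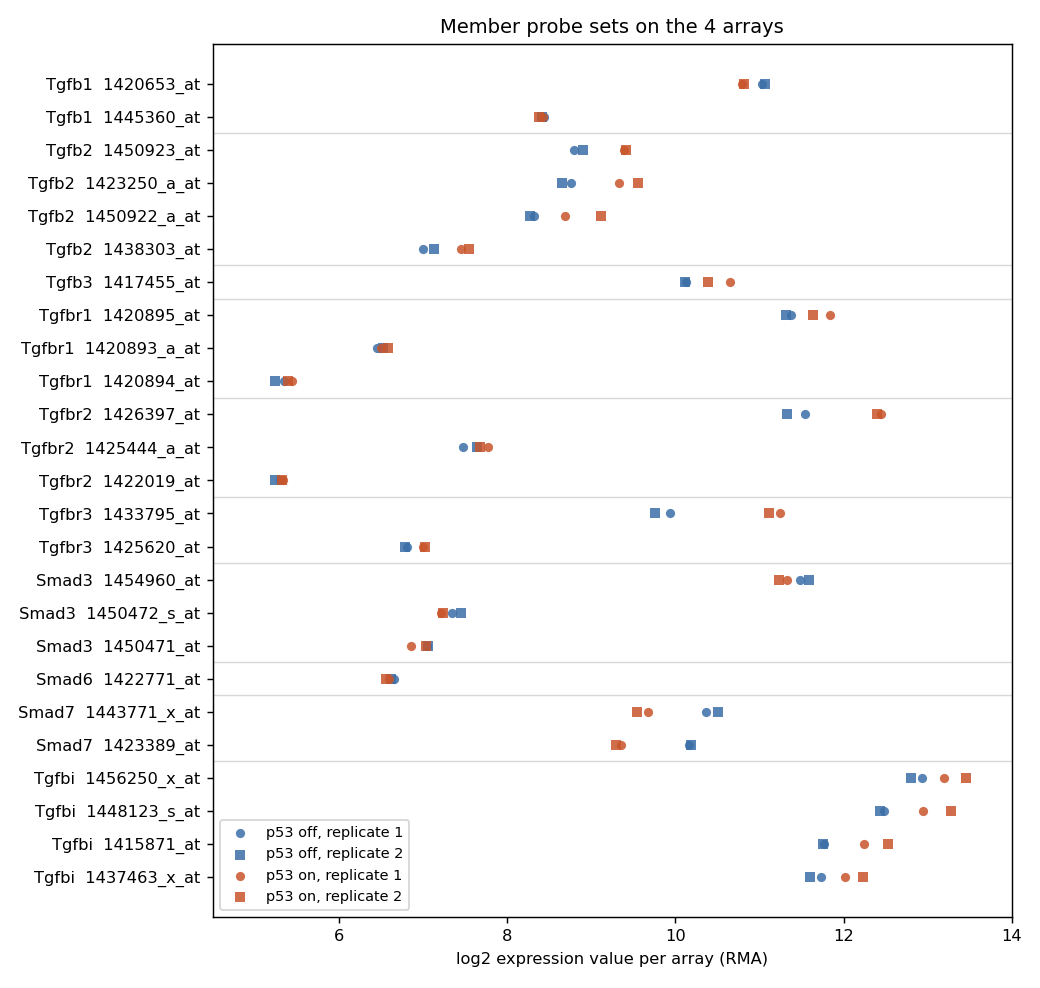
Log2 value (horizontal axis) of each of the 25 probe sets (rows, grouped by gene) on each of the 4 arrays, with p53 off in blue and p53 on in orange, and circles and squares for replicates 1 and 2. Points of the upper Tgfbr3 and Tgfbr2 rows and of both Smad7 rows lie in separate pairs by group, and those of Smad6 and of the second Tgfb1 row lie close together.

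Among the receptors the change of largest size was that of Tgfbr3, the co-receptor betaglycan. Its brighter probe set (1433795_at) read 9.93 and 9.76 in p53 off, against 11.24 and 11.12 in p53 on (log2 values, replicates 1 and 2). Both p53 on arrays were above both p53 off arrays, and the gap between groups exceeded the gap within either. Tgfbr3 rose by 1.34 ± 0.094 on the log2 scale (limma's moderated SE, n = 2 against 2), or 2.52-fold, with a limma adjusted p of 0.00102. Each ± given here is this moderated SE, which draws on the spread of all fitted probe sets as well as on the arrays' own. With the mean of its probe sets the change was 0.77. The other probe set (1425620_at) read 6.81 and 6.79 in p53 off, against 6.99 and 7.03 in p53 on. It pointed the same way, at 0.21 (95% confidence interval 0.04 to 0.39), but did not pass (limma adjusted p = 0.0878; 0.0368 after scaling to spike-in controls, range over the alternatives 0.0368 to 0.318).

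Tgfbr2, the ligand-binding type II receptor kinase, showed the next largest rise of the receptors. Probe set 1426397_at read 11.54 and 11.33 in p53 off, against 12.45 and 12.39 in p53 on, so the groups did not overlap. The change was 0.98 ± 0.094 (moderated SE, n = 2 against 2), or 1.98-fold, with a limma adjusted p of 0.00218. The other probe sets of the gene were dimmer and changed by 0.17 (1425444_a_at, 95% confidence interval -0.06 to 0.39) and 0.06 (1422019_at, -0.12 to 0.24; -0.02 after median centring of the arrays), and neither passed. As the mean of its 3 probe sets Tgfbr2 was at 0.40, and it was still called.

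Tgfbr1, the type I receptor kinase that phosphorylates SMADs, rose less. Probe set 1420895_at read 11.38 and 11.31 in p53 off, against 11.83 and 11.63 in p53 on, with the p53 on arrays further apart than the p53 off arrays but above them. The change was 0.39 ± 0.093 (1.31-fold; limma adjusted p = 0.035). This call was lost without p53 off replicate 1 (adjusted p = 0.109), p53 off replicate 2 (0.188) or p53 on replicate 1 (0.0966), after median centring of the arrays (0.0551) and with the mean of its 3 probe sets (change 0.19; 0.0877). Over all alternatives its adjusted p ran from 0.00957 to 0.188. The other probe sets, 1420893_a_at and 1420894_at, changed by 0.05 (95% confidence interval -0.14 to 0.24; -0.03 after median centring of the arrays) and 0.12 (-0.08 to 0.31).

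The probe sets of a receptor differed in signal as well as in change. The 3 that were called had a mean value between percentiles 90.0 and 97.0 of all probe sets. The 5 that were not called were at percentile 54.9 or lower, and 2 of them, 1420894_at of Tgfbr1 and 1422019_at of Tgfbr2, at 5.91 and 4.83. RMA gives no detection call, and the part of signal in these differences was not tested. Of the 25 member probe sets, 4 lay below the 40th percentile, and 0 of these were called by limma (0 with an unadjusted p under 0.05), against 14 of the 21 others. Over the whole array, 9703 probe sets were called with the lowest 40% by signal left out, against 10272 (22.8%) with all fitted. The share called was thus higher among the brighter probe sets of the whole array as well. The fits were adjusted separately, so their totals do not give the number of dim probe sets called. Whether the split is particular to these genes was not tested.

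**Figure D2:**
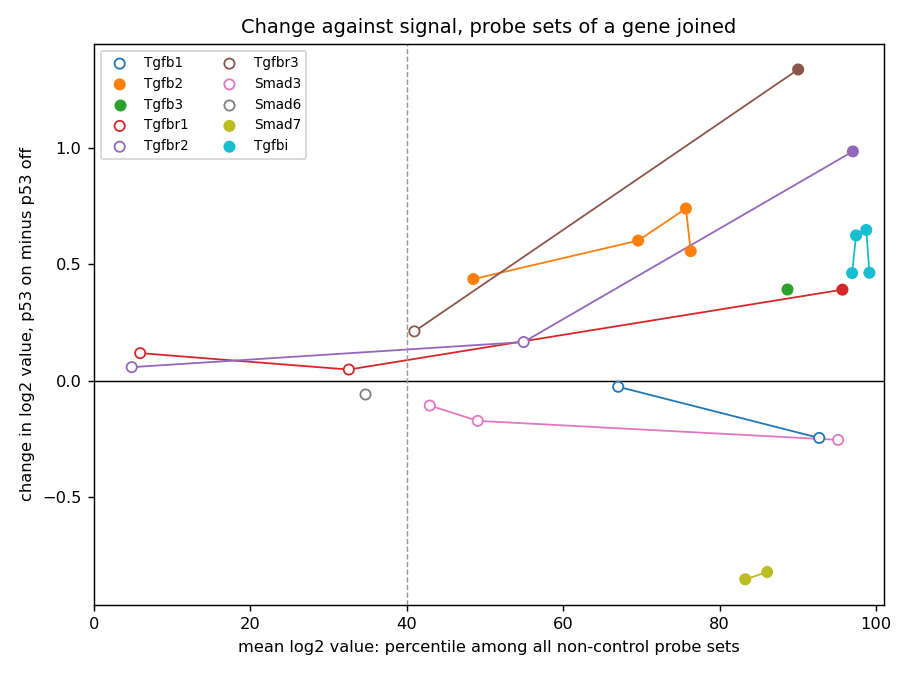
Change in log2 value between p53 on and p53 off (vertical axis) against the percentile of the mean log2 value among all non-control probe sets (horizontal axis), with probe sets of a gene joined; filled points have an adjusted p under 0.05 and the dashed line marks the 40th percentile. The dimmer receptor points lie between 0.05 and 0.21, and the brightest probe sets of Tgfbr3, Tgfbr2 and Tgfbr1 lie at 1.34, 0.98 and 0.39.

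Of the ligand genes Tgfb2 and Tgfb3 rose, and whether the ligands differed in their change was not tested. Tgfb2, the isoform that depends most on betaglycan for receptor binding, rose in each of its 4 probe sets. Probe set 1450923_at read 8.79 and 8.90 in p53 off, against 9.39 and 9.41 in p53 on. The change was 0.56 ± 0.077 (moderated SE, n = 2 against 2), or 1.47-fold, with a limma adjusted p of 0.00645, and the groups did not overlap. The other probe sets changed by 0.74 (1423250_a_at), 0.60 (1450922_a_at) and 0.44 (1438303_at). The p53 on arrays differed most in 1450922_a_at, at 8.68 and 9.11 (change 0.39 without p53 on replicate 2), and there the call was lost without p53 off replicate 1 (adjusted p = 0.125) or 2 (0.181; range 0.00317 to 0.181). The call of 1438303_at was lost without p53 off replicate 1 (0.0957), p53 off replicate 2 (0.0645) or p53 on replicate 2 (0.051; range 0.00554 to 0.0957), and that of 1423250_a_at without p53 off replicate 2 (0.0568; range 0.00202 to 0.0568).

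Tgfb3, the third ligand, had 1 probe set (1417455_at). It read 10.13 and 10.12 in p53 off, against 10.65 and 10.39 in p53 on. The p53 off arrays nearly coincided, and p53 on replicate 1 stood above replicate 2. The change was 0.39 ± 0.10 (1.31-fold), with a limma adjusted p of 0.0485 just inside the threshold. The call was lost without p53 off replicate 1 (0.156) or 2 (0.208), without p53 on replicate 1 (change 0.26; 0.118) and after median centring of the arrays (0.0764); the adjusted p ran from 0.011 to 0.208 over the alternatives.

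Tgfb1, the isoform made by many immune and stromal cells and by platelets, was not called. Its brighter probe set (1420653_at) read 11.03 and 11.07 in p53 off, against 10.79 and 10.82 in p53 on, so the p53 on arrays were the lower pair. The difference was -0.25 ± 0.070 (95% confidence interval -0.42 to -0.07), and it did not pass (limma adjusted p = 0.0598). It passed after median centring of the arrays (-0.32; adjusted p = 0.0299, range 0.0299 to 0.302). The other probe set (1445360_at) lay between 8.38 and 8.44 on all 4 arrays, with a difference of -0.03 (95% confidence interval -0.20 to 0.15; 0.09 with spike-in scaling).

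Smad7, the inhibitory SMAD that recruits ubiquitin ligases to the receptor complex, was the member that fell. Probe set 1443771_x_at read 10.36 and 10.50 in p53 off, against 9.68 and 9.54 in p53 on. Probe set 1423389_at read 10.16 and 10.18 in p53 off, against 9.35 and 9.29 in p53 on. In both, each p53 on array was below each p53 off array by far more than the replicates differed. The first fell by 0.82 ± 0.091 on the log2 scale (1.77-fold lower; limma adjusted p = 0.00325). The second fell by 0.85 ± 0.071 (1.80-fold lower; adjusted p = 0.00154). Both were called under each of the 11 alternatives run on probe sets.

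Smad6, the other inhibitory SMAD, which acts mainly on bone morphogenetic protein (BMP) signals, read between 6.56 and 6.66 on the 4 arrays. Its difference was -0.06 (95% confidence interval -0.23 to 0.12; limma adjusted p = 0.63), at percentile 34.7 of signal. With spike-in scaling the difference was 0.06. Whether Smad6 and Smad7 differed in their response was not tested.

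Smad3, which carries the signal of activated receptors to the nucleus, was lower in p53 on in its 3 probe sets without passing the test. The brightest (1454960_at) read 11.48 and 11.58 in p53 off, against 11.33 and 11.23 in p53 on. The p53 on arrays were the lower pair, and the groups did not overlap. The difference was -0.25 ± 0.081 (95% confidence interval -0.46 to -0.05; limma adjusted p = 0.0807), and it passed after median centring of the arrays (-0.33; adjusted p = 0.0429, range 0.0429 to 0.348). The other probe sets were at -0.17 and -0.11, the latter at 0.01 with spike-in scaling. Groups that do not overlap are common here: 66.7% of all genes were of that kind.

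Tgfbi, a TGF-beta-induced matrix protein that binds collagens and integrins, rose in each of its 4 probe sets. The brightest (1456250_x_at) read 12.93 and 12.79 in p53 off, against 13.20 and 13.45 in p53 on. In each of the 4 probe sets p53 on replicate 2 was the highest array. That probe set rose by 0.46 ± 0.11 (1.38-fold; limma adjusted p = 0.0362), and 1415871_at, whose name carries no mark of likely cross-hybridization, rose by 0.62 ± 0.11 (1.54-fold; adjusted p = 0.0134). Its p53 off values were both 11.76, and its p53 on values were 12.24 and 12.52. The other probe sets, 1448123_s_at and 1437463_x_at, rose by 0.65 and 0.46. Both lost their calls without p53 off replicate 1 (changes 0.67 and 0.53) or 2 (0.62 and 0.40). The call of 1437463_x_at was also lost without p53 on replicate 2 (change 0.36). The call of 1456250_x_at was lost without p53 off replicate 1 (adjusted p = 0.0878), p53 off replicate 2 (0.199) or p53 on replicate 2 (change 0.33; 0.0802; range 0.0131 to 0.199). That of 1415871_at was lost without p53 off replicate 1 (0.069) or 2 (0.0874; range 0.00377 to 0.0874).

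**Figure D3:**
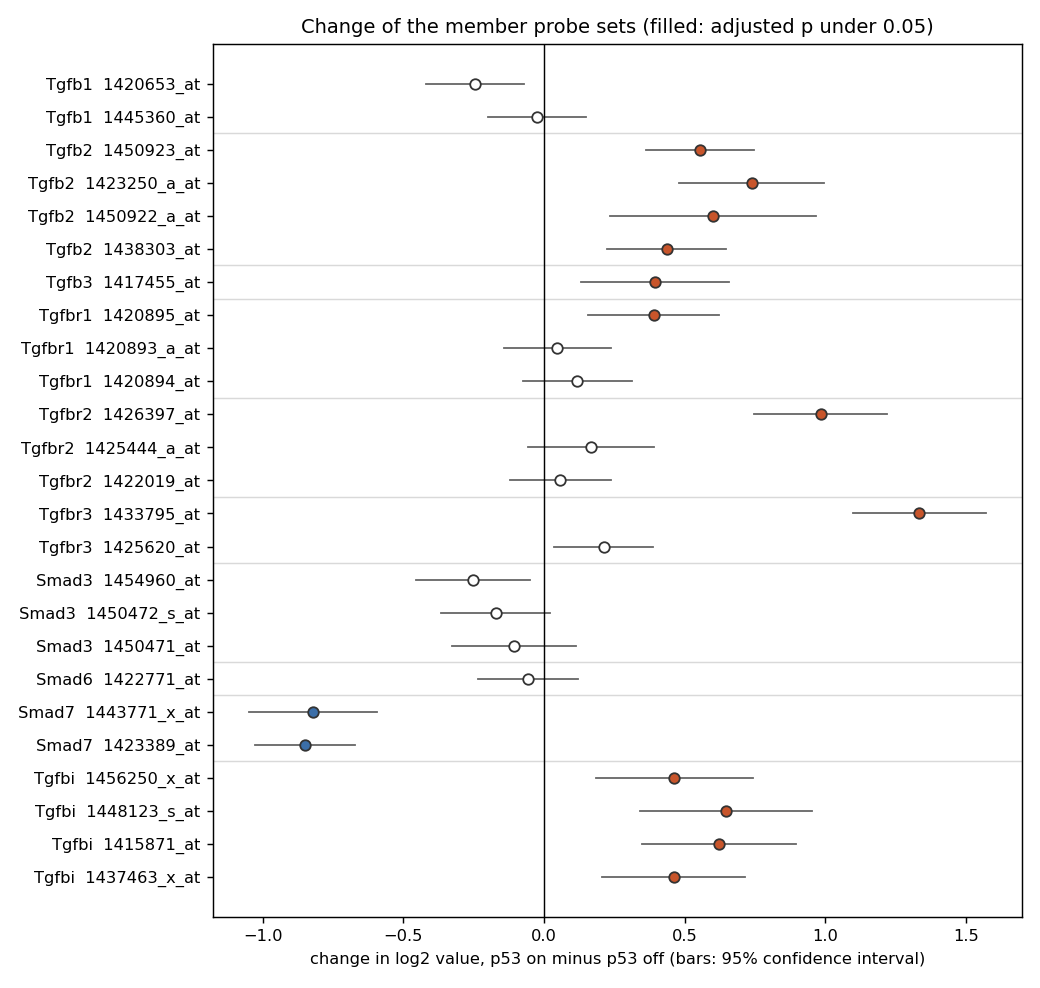
Change in log2 value between p53 on and p53 off (horizontal axis) for each of the 25 probe sets (rows), with bars for the 95% confidence interval from limma and filled points for an adjusted p under 0.05. The filled points of Tgfb2, Tgfb3, the receptors and Tgfbi lie to the right of 0, from 0.39 to 1.34, and those of Smad7 lie at -0.82 and -0.85.

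Genes that store and release latent TGF-beta changed in both directions: 6 of 15 measured genes rose and 4 fell (median change 0.16), or 66.7% called beside 27.7% of all genes. Ltbp1, which tethers latent TGF-beta to the matrix, fell by 1.80 ± 0.070 (3.48-fold; limma adjusted p = 0.000417; -0.88 with the mean of its probe sets). Mmp2, a gelatinase that can free TGF-beta from the matrix, rose by 1.65 ± 0.13. Emilin1, an elastic fibre protein that restrains processing of the TGF-beta precursor, rose by 1.23 ± 0.10 (0.80 with the mean of its probe sets). Nrros, which holds latent TGF-beta on macrophages and microglia, rose by 0.93 ± 0.074. Without p53 off replicate 1 or 2 the genes called in this list numbered 6 and 5 instead of 10.

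Of 22 measured nuclear partners and regulators of SMADs 6 fell and 0 rose by limma, with 3 higher at an unadjusted p under 0.05 (median -0.08). The share called, 27.3%, is near the 27.7% of all genes. With spike-in scaling 3 rose, and with quantile normalization 2. Tgif1, a homeobox repressor of SMAD-driven transcription, fell by 1.35 ± 0.073 (2.55-fold; limma adjusted p = 0.00061). Strap, a receptor-associated protein that cooperates with SMAD7, fell by 0.67 ± 0.078. Trim33, a ubiquitin ligase of the SMAD pathway, changed by -0.60 ± 0.084 (-0.32 with the mean of its probe sets) and was not called without p53 off replicate 2 (adjusted p = 0.0567; range 0.00313 to 0.0567). Pmepa1, a TGF-beta-induced feedback inhibitor, changed by -0.47 ± 0.087 and was not called without p53 off replicate 1 (0.0638) or 2 (0.112), nor with the mean of its probe sets (-0.33; 0.0551; range 0.00754 to 0.112). Without those arrays the list held 3 and 2 called genes.

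The activin and BMP branch has ligands that share receptor types with TGF-beta, and traps that bind such ligands. In this branch 9 of 32 measured genes fell and 5 rose (median 0.03), or 43.8% called beside 27.7% of all genes. Grem1, a secreted BMP antagonist, fell by 2.12 ± 0.070 (4.34-fold; limma adjusted p = 0.000376). Inhba, the activin A subunit gene, fell by 1.79 ± 0.17 (3.46-fold; -0.89 with the mean of its probe sets). Fst, which encodes the activin trap follistatin, fell by 1.50 ± 0.16, and the ligand gene Bmp2 by 1.20 ± 0.14. With spike-in scaling 8 genes rose, and without p53 off replicate 1 or 2 the called genes numbered 9 and 7 instead of 14.

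Of 28 measured genes known to respond to TGF-beta, 13 rose, 4 fell and the others did not pass (median 0.38), beside 13.5% of all genes higher and 14.2% lower. Twist1, a transcription factor of mesenchymal cells, rose by 1.58 ± 0.078 (2.99-fold; limma adjusted p = 0.00054), and Zeb2, another such factor, rose by 0.90 ± 0.11. Il11, a cytokine induced by TGF-beta in fibroblasts, fell by 1.65 ± 0.080 (limma adjusted p = 0.000519). Angptl4, a secreted lipase inhibitor, changed by -0.93 ± 0.14; its other probe set was at 0.04, and the call was lost without p53 off replicate 2 (adjusted p = 0.0637; range 0.00127 to 0.793, the highest in that other probe set). Without p53 off replicate 2 the list held 8 called genes instead of 17, 6 of them higher.

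**Figure D4:**
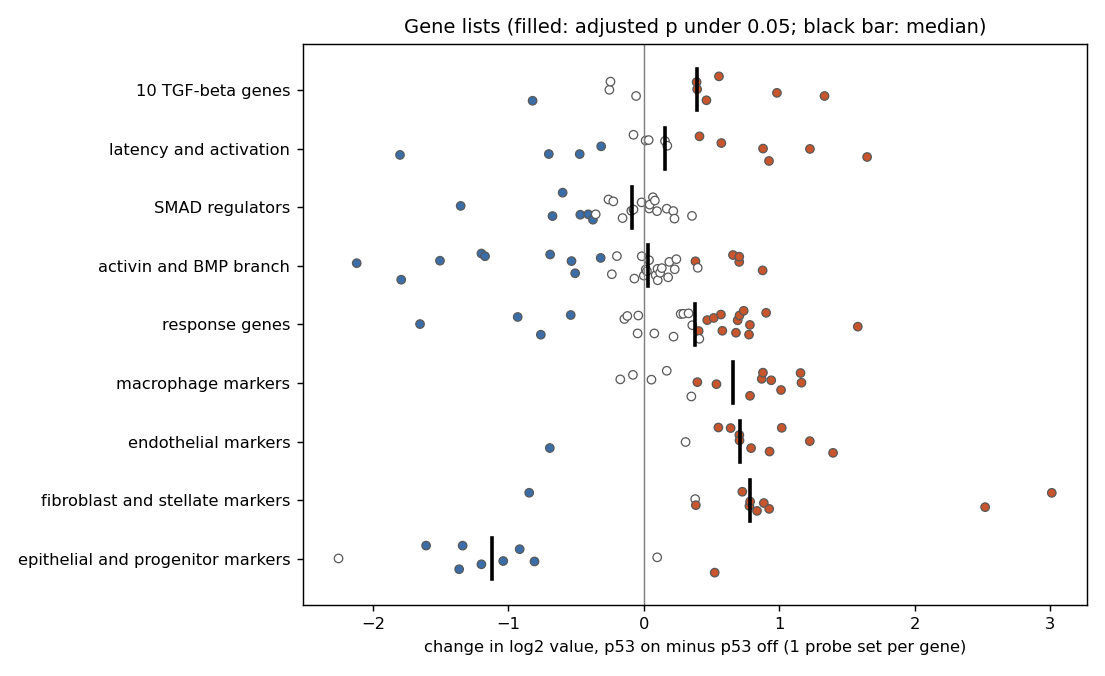
Change in log2 value between p53 on and p53 off (horizontal axis) of each gene, 1 probe set per gene, in the 10 TGF-beta genes, in 4 lists of other pathway genes and in 4 lists of cell type markers; filled points have an adjusted p under 0.05 and black bars are list medians. Macrophage, endothelial and fibroblast markers have medians of 0.66, 0.71 and 0.79, and epithelial and progenitor markers a median of -1.12.

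Markers of cell types that express these genes moved in the same comparison. Of 11 fibroblast and stellate cell markers 9 rose, 1 fell (Lrat, change -0.85) and Reln did not pass. Of 11 endothelial markers 9 rose and 1 fell (Lyve1, change -0.69). Of 14 macrophage markers 9 rose and 0 fell by limma (0 lower at an unadjusted p under 0.05). Over all genes 13.5% rose and 14.2% fell. The mean log2 value over the fibroblast list was 10.81 and 10.49 in p53 off, against 11.66 and 11.54 in p53 on. Over the endothelial list it was 8.65 and 8.60 against 9.16 and 9.47, and over the macrophage list 9.91 and 9.94 against 10.57 and 10.44. Of 10 epithelial and progenitor markers 7 fell, 1 rose (Epcam, change 0.52), and Krt7 and Afp did not pass. The mean over that list was 10.42 and 10.59 in p53 off, against 9.67 and 9.36 in p53 on. The part of these shifts in the changes of the TGF-beta genes was not tested. Of 4 platelet and 6 hepatocyte markers 0 were called by limma (0 at an unadjusted p under 0.05), and of 8 lymphocyte markers 1 rose. Single arrays stood apart in some of the marker lists. The hepatocyte gene Cyp2e1 read 7.27 and 7.24 in p53 off, against 9.71 and 7.39 in p53 on. The platelet gene Ppbp read 7.87 and 6.54 in p53 off, against 6.22 and 6.29 in p53 on. Afp, of the epithelial and progenitor list, read 9.16 and 9.15 in p53 off, against 8.47 and 5.33 in p53 on. Its low reading enters the list mean of p53 on replicate 2. Among genes that bear on the liver tumor label, the keratin genes Krt8, Krt18, Krt19 and Krt7 were at percentiles 99.4, 99.2, 95.2 and 21.4 of signal. The hepatocyte genes Ttr, Tat, Cyp2e1, Apoa1, Alb and Cps1 were at 72.6, 65.7, 59.1, 45.8, 45.2 and 35.1.

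The genes whose 4 log2 values, centred on their mean, lay nearest to those of Tgfbr3 were Plce1 (Euclidean distance 0.035), A330023F24Rik (0.052) and Tacc1 (0.060), with changes of 1.35, 1.37 and 1.38. Nearest to Smad7 were Tmem33 (0.041), Cmbl (0.045) and 4921524J17Rik (0.047), with changes of -0.83, -0.80 and -0.79. With 4 arrays such a likeness describes the size of the difference between groups and little else.

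Over all non-control probe sets the array medians lay between 7.29 and 7.39, arrays of 1 group correlated with r of 0.997 and 0.994 across probe sets, and pairs from different groups with r between 0.970 and 0.976; probe sets are not independent replicates. The difference between 3' and 5' control probe sets of beta-actin, a sign of RNA quality, was 0.395 and 0.262 in p53 off, against 0.478 and 0.492 in p53 on, and its part in the results was not tested. With 2 arrays per group, precision is limited throughout.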

How the data were processed

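Total RNA of 4 tumor samples was extracted with Trizol, amplified and biotin-labelled, per the labels' protocols. The values deposited by the authors are on the log2 scale, a single value for each probe set on each array, and were made with RMA (background correction, quantile normalization, summarisation); the submitters' processing notes also name limma 3.14.4. The annotation the authors used is not given in the sources used here. Of 45101 probe sets 64 were controls and were left out. In the platform annotation 34945 had exactly 1 symbol and 932 had several; the other 9160 are unnamed here.

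Groups and replicate numbers came from the sample titles. All 45037 non-control probe sets were fitted with lmFit and eBayes (limma 3.58.1, R 4.3.3, 2 residual and 5.53 moderated degrees of freedom), p53 on minus p53 off, 2 arrays each, without a block. Adjustment (Benjamini-Hochberg) ran over all of them. A gene was read from its probe set with the highest mean among those of exactly 1 symbol. The fit was tested on simulated data. Named were all 10 genes with every probe set, up to 4 called genes of largest change in each of 4 pathway lists, and the 3 genes nearest in pattern to the members with the largest rise and fall. The 10 genes, lists and tests were chosen with earlier results of these data known. Some listed genes were not analysed here. The alternatives were a replicate block, 3 other scalings, a filter on dim probe sets (lowest 40%), 2 variance models, 3 rules for reading a gene and leaving out each array in turn, where a group's lone array is taken to vary as much as the other pair. Figures were drawn with matplotlib 3.10.9.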

Additional observations from a re-analysis of the deposited data

How the results depend on the processing

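Leaving out each array in turn gave 5 to 12 called member probe sets (3 to 10 higher and 2 lower in each case), 4 to 6 called member genes (3 to 5 higher and 1 lower), 22 to 47 called genes in the 4 pathway lists and 4048 to 9560 called probe sets in all, against 14, 7, 47 and 10272 with all arrays; the lowest values came without p53 off replicate 2. With median centring of the arrays, 4 member probe sets and 3 member genes were lower, Tgfb1 and Smad3 joining Smad7. Spike-in scaling moved the median of all probe sets up by 0.115 on the log2 scale, so changes there are relative to that shift. The 7 called genes kept their direction under every alternative run. Of 271 recomputed changes of member probe sets 6 turned direction, all in probe sets that were not called: with spike-in scaling 1445360_at of Tgfb1 (0.089), 1450471_at of Smad3 (0.0086) and Smad6 (0.059), with centring 1420893_a_at of Tgfbr1 (-0.027) and 1422019_at of Tgfbr2 (-0.017), and with quantile normalization 1420893_a_at (-0.0048). Without probe sets of likely cross-hybridization Angptl4 was at 0.038. The cause of each was not tested. The replicate numbers were not taken to pair the samples (correlation of deviations -0.0825): with the replicate block 10 member probe sets and 5 member genes were called, Tgfb3 (adjusted p = 0.0665), 1456250_x_at (0.0777) and 1437463_x_at (0.0648) of Tgfbi and 1450922_a_at of Tgfb2 (0.057) losing their calls, and 43 genes in the pathway lists. Of the member probe sets, 4 lay in the lowest 40% of signal.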
